A study of Mus musculus with 2 samples.

Results

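Fos, Fosb, Fosl2, Jun, Junb, Jund, Egr1, Egr2, Egr3 and Nr4a1 are 10 transcription factor genes of the immediate early class, taken here as a list by symbol from 19938 named mouse genes. Each of the 10 had 1 transcript cluster (the set of probes summarised as 1 gene signal) carrying its symbol alone, so no choice between clusters was needed. The study measured RNA of CD4 T cells from spleen on 1 array of a Taf7 heterozygote and 1 array of a Taf7 knockout. Both came from mice of a mixed C57/BL6 and 129 background that carried 1 floxed and 1 null Taf7 allele (TAF7f/-). The knockout (Taf7 -/-) also carried the 8EIII-cre transgene, and the heterozygote (Taf7 +/-) did not. The cells in which 8EIII-cre is active, the age of the mice, the number of mice behind each sample and any stimulation of the cells are not given in the labels. The cells were sorted on TCR beta and CD4 and were enriched for naive cells by low surface CD44. With 1 array per genotype, no value below has a replicate check, no test was run, and differences describe these arrays and not the genotypes at large.

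Immediate early genes are transcribed within minutes of a signal without new protein synthesis, because the factors that switch them on are already in the cell. In T cells the antigen receptor acts through MAP kinases, calcium and pre-bound factors such as SRF, its ETS partners and CREB. The products then drive later genes: Fos and Jun proteins pair to form AP-1, EGR proteins bind GC-rich DNA through zinc fingers, and Nr4a1 (Nur77), an orphan nuclear receptor, is widely used as a readout of receptor signalling. TAF7 is a subunit of TFIID, the complex that carries the TATA-binding protein to promoters, and immediate early genes are known for rapid TFIID-dependent induction.

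Promoter sequence was available in RefSeq (GRCm38.p6) windows running from 250 bases before to 50 bases after an annotated start. Of the 10 genes, 8 matched by symbol, with 12 windows, 5 of them for Egr2; Egr1 and Egr3 did not. Shown first are the genes with the lowest knockout minus heterozygote differences, Jun and Fosl2, then Junb, which had the highest, and Fos, which holds a TATA motif. Each run is 5′ to 3′ on the gene's strand, from 130 bases before the annotated start through the first 20 transcribed bases. Capitals mark matches to TATAAA, TGACGTCA (the cyclic AMP response element), TGAGTCA (the AP-1 element), the CArG box or TGACG (the first 5 letters of the cyclic AMP response element), each on both strands. The CArG box, the SRF site, was searched as CCWWWWWWGG, where W is A or T.
Jun, chr4:95052203-95052352, minus strand: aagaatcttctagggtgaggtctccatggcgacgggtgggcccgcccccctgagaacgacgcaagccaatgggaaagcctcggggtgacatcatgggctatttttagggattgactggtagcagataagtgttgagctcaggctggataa
Fosl2, chr5:32136342-32136491, plus strand: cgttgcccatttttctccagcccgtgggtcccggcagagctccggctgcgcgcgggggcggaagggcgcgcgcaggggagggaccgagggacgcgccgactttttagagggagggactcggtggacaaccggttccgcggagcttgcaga
Junb, chr8:84978729-84978878, minus strand: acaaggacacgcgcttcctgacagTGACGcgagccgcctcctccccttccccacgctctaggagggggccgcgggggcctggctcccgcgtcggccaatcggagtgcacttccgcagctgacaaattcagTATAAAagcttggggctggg
Fos, chr12:85473760-85473909, plus strand: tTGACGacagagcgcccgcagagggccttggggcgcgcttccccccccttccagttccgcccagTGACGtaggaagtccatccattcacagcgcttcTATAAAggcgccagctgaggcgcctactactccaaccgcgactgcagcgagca

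TATAAA was present in 2 of the 12 windows, those of Fos and Junb, and in 13.6% of all 32851 windows in the table. In Fos it began 33 bases before the start, and in Junb at the annotated start itself. The stretches of Jun and Fosl2 held no match to any of the 5 motifs, nor did the whole windows of these genes. The window of Jund, which was higher in the knockout by 0.08, held none either. Motif matches were not compared with the differences between the arrays. TGACG was present in 7 of the 12 windows, 3 of them overlapping windows of Egr2 and the others those of Fos, Fosb, Junb and Nr4a1, where 20.8% of all windows held it. Nr4a1 had 4 such matches, all on the strand opposite the gene. Neither TGACGTCA, in 1.79% of all windows, nor TGAGTCA, in 5.20%, was found in a window of these genes. Only exact matches were counted, so variants of these elements were missed. The Jun stretch, for example, holds tgacatca, which differs from TGACGTCA at a single base.

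The CArG box was found in 1.63% of all windows and, among the 8 genes with a window, in Egr2 alone, where the windows of alternative starts held 2 different boxes. Egr1 and Egr3 had no window, and bases more than 250 before a start were not searched. A gene without a match here may therefore still have the site. Both Egr2 boxes are shown in capitals with 10 bases on each side, on the plus strand of chromosome 10. The box in the second run lies 5′ of a TGACG match on the opposite strand, and no match to another motif overlaps either box.
Egr2 first box, chr10:67537484-67537513: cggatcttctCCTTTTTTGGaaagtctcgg
Egr2 second box, chr10:67537787-67537816: gttcctcagtCCATATATGGgcagcgacgt

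The 10 genes differed little between the arrays: the differences ran from -0.34 for Jun to 0.25 for Junb on the log2 scale, and none reached 1.5-fold. Among all 10457 genes above the filter on low values, 3.62% did (379 genes; 0.449% higher and 3.17% lower in the knockout), so the count of 0 of 10 stands beside a background at which few genes are past that fold. The filter kept genes whose mean over both arrays was at least 7.71, the median of all rows of the table, and all 10 genes passed it. By sign, 7 of the 10 were higher in the knockout and 3 lower, where 40.9% of all genes above the filter were higher. The median difference was 0.06 over the 10 genes and -0.05 over all genes above the filter.

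The signs near 0 depended on how the arrays were scaled. The background share of higher genes itself moved by scaling, so each count is read beside its own share. After subtraction of the median difference of the genes above the filter, 8 of the 10 genes were higher beside 5228 of the 10457, Fos passing to 0.00. After removal of a loess trend of the difference on the mean signal, 6 of the 10 were higher beside 49.2%, and after quantile normalization 6 of the 10 beside 51.7%. In both of these Fosb passed below 0, to -0.08 and -0.03. The other 8 genes kept their sign in all 3 scalings.

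**Figure D1:**
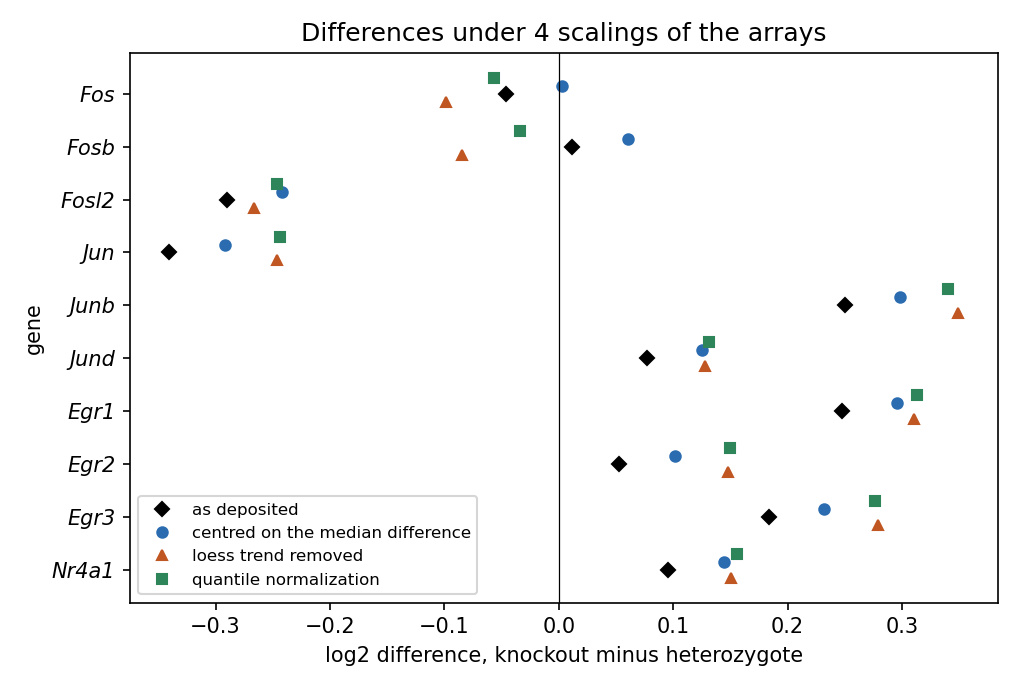
Log2 difference, knockout minus heterozygote (x axis), of each of the 10 genes (y axis), from the deposited values and after 3 other scalings of the arrays, 1 point per scaling. Jun and Fosl2 lie below 0 and Junb, Jund, Nr4a1 and the EGR genes above 0 in all 4, while Fos and Fosb lie on either side of 0.

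Among the Fos genes, whose proteins pair with a Jun protein and do not readily pair with one another, only Fosl2 differed by more than 0.1. Fos, the founding member, had log2 signals of 8.27 (heterozygote) and 8.22 (knockout) and so a difference of -0.05. Fosb, its close relative, gave 8.04 on the heterozygote array and 8.05 on the knockout array, 0.01 apart. The signals of Fos and Fosb on both arrays were within 0.6 of the filter value, so neither was far above it.

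Fosl2, which encodes the Fos-related protein Fra-2, had log2 signals of 8.79 on the heterozygote array and 8.50 on the knockout array. Its difference was -0.29, or 1.22-fold lower. Of the 500 genes nearest to it in mean signal, 27.0% had a lower difference, and their central 95% range ran from -0.69 to 0.43. The value of Fosl2 was thus well inside the spread of genes of similar signal.

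The Jun family, whose proteins pair with Fos proteins or with one another, held both ends of the list in the deposited and the centred values; after loess or quantile normalization Fosl2 was the lowest (-0.27 and -0.25), just below Jun. Jun, a strong activator of AP-1 target genes, went from a log2 signal of 10.17 on the heterozygote array to 9.83 on the knockout array, a difference of -0.34 or 1.27-fold lower. It was the only one of the 10 past a smaller size, 0.32 on the log2 scale, which 18.4% of all genes above the filter passed in either direction and 13.3% passed downward. This held for the deposited values alone: after each of the 3 other scalings Jun was short of that size (-0.29 to -0.24), and after loess and quantile normalization Junb was past it instead, at 0.35 and 0.34. Junb, often a weaker activator that can oppose Jun, went from 9.68 to 9.93, a difference of 0.25 or 1.19-fold higher. The differences of Jun and Junb, in opposite directions, were 0.59 apart on the log2 scale. Jund, the Jun gene least dependent on stimulation in many cells, was at 11.25 and 11.33, a difference of 0.08.

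Set beside genes of similar mean signal, Jun and Junb also lay on opposite sides. For Jun, 13.0% of its 500 nearest genes had a lower difference, and for Junb 95.4% did. The central 95% range was -0.62 to 0.29 around Jun and -0.66 to 0.30 around Junb, and both genes were inside it. The distance between them is therefore a description of 2 arrays, with no measure of how far either gene would vary between mice.

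**Figure D2:**
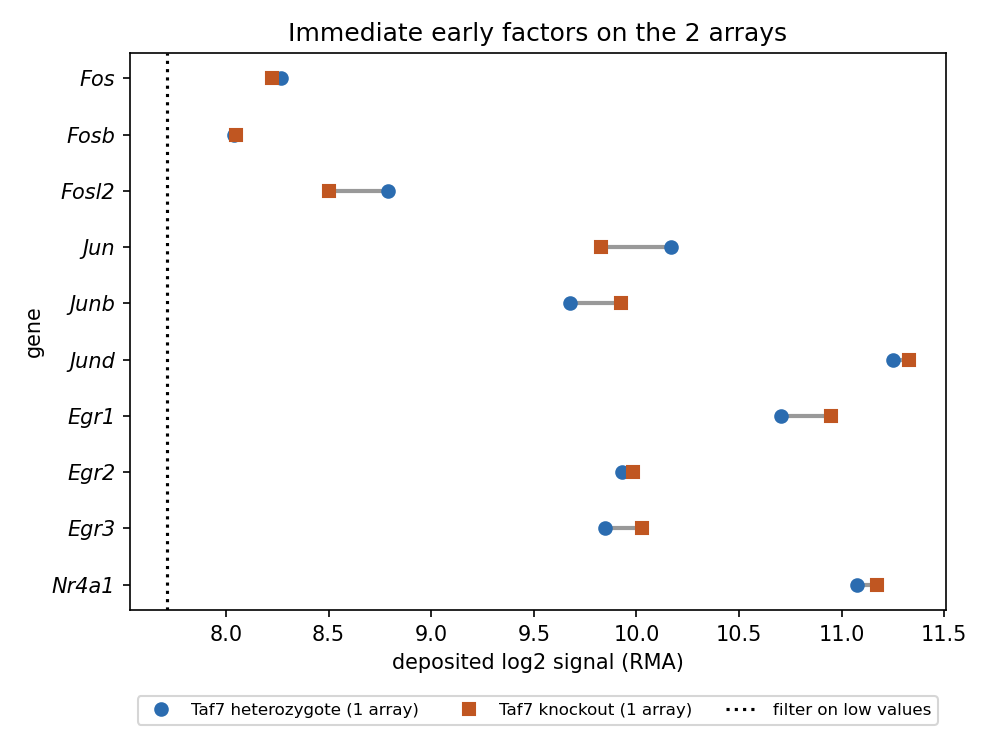
Deposited log2 signal (x axis) of the 10 genes (y axis) on the heterozygote array (circles) and the knockout array (squares), 1 array each, with the filter value of 7.71 as a dotted line. Jun and Fosl2 are lower in the knockout by -0.34 and -0.29, Junb and Egr1 are higher by 0.25 each, and all 20 points lie above the filter; signals of different genes come from different probes and are not compared.

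The 3 EGR genes were all higher in the knockout, by small amounts and in all 4 scalings. In the deposited values 40.9% of all genes above the filter were higher. Egr1, a zinc finger factor induced by ERK signalling, had log2 signals of 10.70 on the heterozygote array and 10.95 on the knockout array, or 1.19-fold higher. Egr2, which together with Egr3 restrains T cell activation and supports anergy, was at 9.93 and 9.98, a difference of 0.05. Egr3 went from 9.85 to 10.03, which is 0.18 or 1.14-fold higher. The median of the 3 was 0.18.

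Egr1 lay closest of the 10 to the edge of the spread. Of its 500 nearest genes in mean signal 96.6% had a lower difference, against a central 95% range of -0.56 to 0.29. The corresponding shares were 77.8% for Egr2 and 93.4% for Egr3. All 3 lay inside their ranges.

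Nr4a1 had log2 signals of 11.08 (heterozygote) and 11.17 (knockout), 0.10 or 1.07-fold higher. Of its 500 nearest genes 82.0% had a lower difference. Nr4a1 and the 3 EGR genes were thus all higher, with a median of 0.14, whereas the 6 AP-1 genes split into 3 higher and 3 lower with a median of -0.02. The difference between these medians was not tested. Of all genes above the filter, 40.9% were higher. The offset between the arrays also varied with signal: the 500 nearest genes had a median of 0.05 around Fos and 0.13 around Fosb. Around each of the other genes it was between -0.10 and -0.05.

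**Figure D3:**
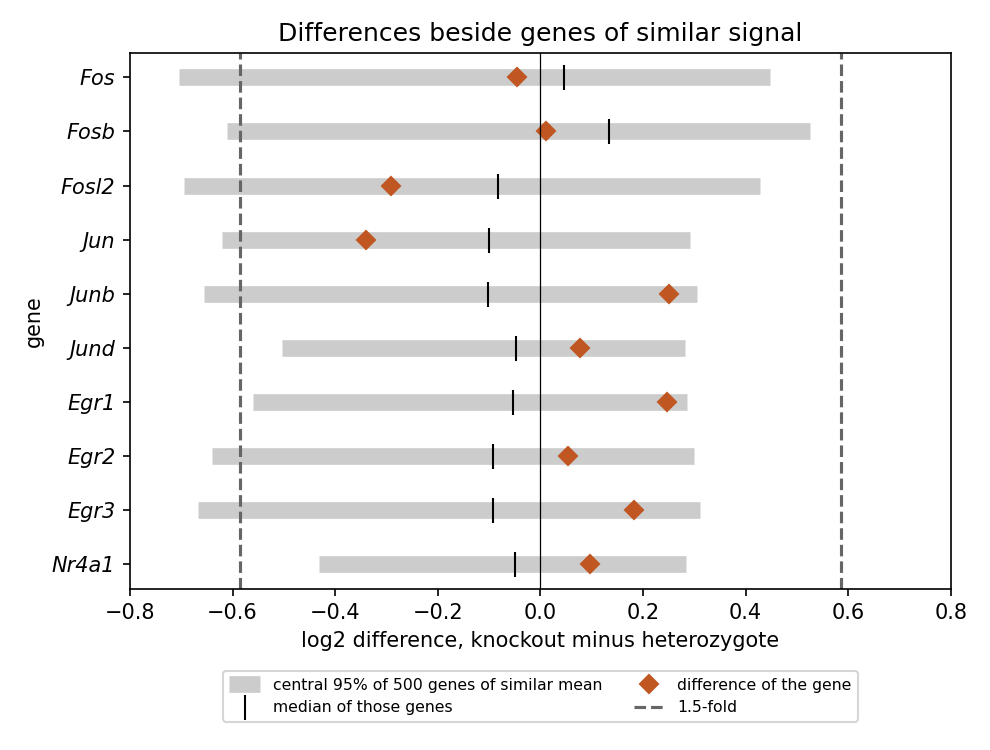
Log2 difference, knockout minus heterozygote (x axis), of each of the 10 genes (diamonds; y axis), over the central 95% range of the 500 genes nearest in mean signal (grey bars) and their median (ticks), with 1.5-fold as dashed lines. All 10 diamonds lie inside their bars and none reaches 1.5-fold, with Egr1 and Junb near the upper ends.

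Relatives of the 10 genes outside the list also stayed within 1.5-fold, which only 3.62% of all genes above the filter passed. Of 12 further genes of AP-1 and its bZIP partners, 10 were above the filter. Of these, 7 were higher and 3 lower, where 40.9% of all genes above the filter were higher. Of all 12, 8 were higher in the deposited values, where 60.7% of all 19938 genes were higher. After centring 9 of the 12 were higher, and after loess or quantile normalization 7. The median of all 12 was 0.03 as deposited and 0.08, 0.02 and 0.03 after these 3 scalings. Batf2 had the highest difference above the filter, 0.38, from 7.72 (heterozygote) to 8.11 (knockout). Maf, a factor of helper and regulatory T cells, had the lowest, -0.54, from 9.17 to 8.62, or 1.46-fold lower. Of the 5 relatives of EGR and NR4A, the 2 higher were Egr4 at 0.15 and Nr4a3 at 0.34.

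The NR4A genes did not share a direction. Nr4a3 went from 9.52 in the heterozygote to 9.87 in the knockout, above the difference of 98.2% of its 500 nearest genes. Nr4a2 went from 8.19 to 7.95, a difference of -0.25. With Nr4a1 at 0.10, 2 of the 3 orphan receptors were higher and 1 lower. The EGR co-repressors Nab1 and Nab2 were at -0.13 and -0.11.

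Genes upstream of the immediate early response also stayed within 1.5-fold, as did all but 3.62% of the genes above the filter. The first list had 12 transcription factors and cofactors that act on these promoters, among them SRF, its ETS and MRTF partners and CREB. Of these, 5 were higher and 7 lower, near the 40.9% of all genes above the filter that were higher, and the median was -0.02. After centring, loess or quantile normalization 9 of these 12 were higher, with medians of 0.03, 0.04 and 0.06, so the list had no direction that held across scalings. Their differences ran from -0.12 for Nfatc3, an NFAT factor of calcium signalling, to 0.22 for Crtc2, a CREB coactivator. Of 12 measured MAP kinase cascade genes, 10 were lower and 2 higher, where 59.1% of all genes above the filter were lower, and the median was -0.15. After each of the 3 other scalings 8 were lower and 4 higher, with medians from -0.10 to -0.08. The lowest was Map2k6, a kinase that activates p38, at -0.43, and the highest Map2k2, a kinase that activates ERK, at 0.02. Another 6 of the 18 listed cascade genes had no cluster of a single symbol and were not analysed here.

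Other genes induced in the same wave, with 1 exception above the filter, were also within 1.5-fold. Of 36 such genes, 22 were higher and 14 lower, near the 60.7% of all 19938 genes that were higher, and their median was 0.05. Of the 30 above the filter, 18 were higher, beside 40.9% of all genes above it, and 12 lower. Past 1.5-fold was 1 of the 30, a share near the background of 3.62%: Rgs1, a regulator of G protein signalling, which was 1.95-fold lower (8.70 on the heterozygote array, 7.73 on the knockout array). Gadd45b, a stress-response gene, was the highest above the filter at 0.48, from 9.15 to 9.63. Gadd45b, Cd69 (0.44), Dusp2 (0.39) and Dusp1 (0.35) lay above the central 95% ranges of their 500 nearest genes. Rgs1 lay below its own, as did Dusp4 (-0.45), which was below the filter. Some genes fall outside such ranges by construction. At the smaller size of 0.32 on the log2 scale, 9 of the 30 were past (5 higher, 4 lower), beside 18.4% of all genes above the filter.

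A list of 20 genes induced further downstream by receptor signalling or marking regulatory T cells, such as Foxp3 and Ikzf2, was mostly lower in the knockout. It had 17 lower and 3 higher, with a median of -0.29, where 60.7% of all 19938 genes were higher. Of its 16 members above the filter, 13 were lower, beside 59.1% of all genes above it. Past 1.5-fold were 7 of the 16 (6 lower, 1 higher), beside the 3.62% of all genes given above. Fasl was 2.29-fold lower, from 8.10 (heterozygote) to 6.91 (knockout), but is not in this count because its mean of 7.51 was below the filter. The list was drawn up with some of these values known, so its counts cannot stand as a test. Cd40lg, a surface ligand of helper T cells, went from 11.13 to 10.13. Il2ra, a chain of the interleukin-2 receptor, was 1.78-fold lower and the costimulatory receptor Icos 1.58-fold lower. Ctla4, an inhibitory receptor, was 2.82-fold lower, Foxp3, the defining factor of regulatory T cells, 2.09-fold lower, and Ikzf2, which encodes Helios, 1.96-fold lower. Ndrg1, linked to anergy, was the exception at 1.73-fold higher, from 10.09 to 10.88. Tnf and Lag3 were also higher, by 0.16 and 0.01.

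Several of these genes are also abundant in regulatory or activated T cells, and in bulk RNA fewer cells of a type and less RNA per cell cannot be told apart. Cd44, on which the cells were also sorted, went from 9.56 on the heterozygote array to 8.21 on the knockout array, while Ccr7, a homing receptor of naive T cells, differed by -0.11 and Il7r, the interleukin-7 receptor chain, by -0.22. The part of a different mix of cells in the differences of the 10 factors was not tested.

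**Figure D4:**
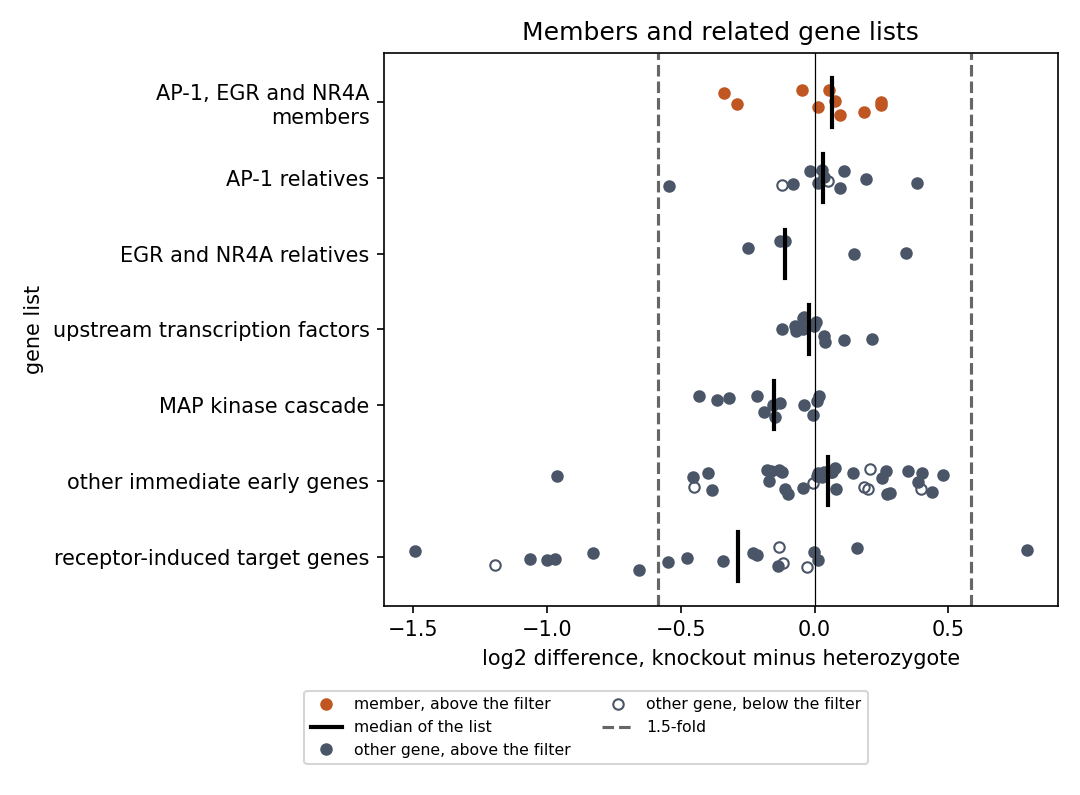
Log2 difference, knockout minus heterozygote (x axis), of every measured gene in the list of 10 and in 6 related lists (y axis); filled points are above the filter on low values, open points below it, vertical bars are list medians, and dashed lines mark 1.5-fold. The 10 factors lie between -0.34 and 0.25 around a median of 0.06. The receptor-induced target genes, a list drawn up with some of these values known, have a median of -0.29 and reach -1.50 with Ctla4.

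The arrays and samples were checked as follows. The median signal was 7.68 on the heterozygote array and 7.75 on the knockout array, and the arrays correlated across the genes above the filter with a Pearson r of 0.982, genes not being independent replicates. Taf7 went from 8.34 to 7.79, a difference of -0.55. No source used here says whether its probes lie inside the deleted stretch, so this value does not check the genotype by itself. The 5 measured CD4 T cell markers lay between 11.1 and 13.5 on both arrays, Cd3d having the lowest difference at -0.50 and Cd3g the highest at 0.05. Of the 14 measured markers of CD8 T, B, myeloid, NK and erythroid cells, 12 were below the filter. The 2 above it were Cd79b, of B cells, at -0.01, and Cd8b1, of CD8 T cells, at -0.26.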

How the data were processed

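The deposited values are gene-level log2 signals made by the authors for the core gene set by RMA, run in Expression Console version 1.1 (Affymetrix), per the series' design text and the submitters' processing notes. RMA includes a between-array quantile step, which can shrink a shift shared by most genes. The design text names an exon array, but the probe table matches identifiers of a gene-level array; this was not settled. No source used here names a genome build or probe positions.

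Rows with 1 symbol were used (21789 of 35556), and the cluster of highest mean stood for a gene. The log2 difference was knockout minus heterozygote, with no further normalization. A gene passed the filter when its mean reached the 50th percentile of the table's rows. With 1 array per genotype, genes were counted at 1.5-fold and, as an alternative, at 0.32 on the log2 scale. Each gene was set beside the 500 genes nearest in mean. The alternatives were centring, removal of a loess trend (span 0.3), quantile normalization, averaged clusters, filters at the 25th and 75th percentile or none, and the mean in place of the median. Named are the 10 genes, Taf7, and of each other list the highest and lowest gene above the filter and those past 1.5-fold. Egr4, Nab1, Nab2, Il7r, Cd69, Dusp1, Dusp2, Dusp4, Fasl, Tnf and Lag3 were added after their values were seen. The members and lists were chosen with earlier results of these data known, and TGACG was added to the motifs after the windows were seen. The calculations were tested on simulated data. The work used Python 3.11.15 with matplotlib 3.10.9, statsmodels 0.14.6, pandas 2.3.3 and numpy 2.4.6.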

Additional observations from a re-analysis of the deposited data

How the results depend on the processing

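Leaving out an array was impossible with 1 per genotype. No paired analysis was possible because the 2 groups have single arrays without a pairing label. All 40 alternative values of the 10 genes, from centring, loess, quantile normalization and averaged clusters, moved by less than the robust SD among the 500 nearest genes in mean signal. Averaging could not move them, since each gene has 1 cluster. Centring shifted every gene by the same 0.05, less than the smallest of these SDs (0.15, for Jund). These 2 alternatives are therefore no check. At the smaller fold (0.32 on the log2 scale), 1 gene, Jun, was past the threshold in place of 0. With that fold and another scaling together, combinations chosen after seeing the data, the count was 0 after centring and 1 after loess or quantile normalization, the gene then being Junb (0.35 and 0.34) and not Jun (-0.29, -0.25 and -0.24 in the 3 scalings). The median of the 10 genes ran from 0.02 (as a mean) to 0.14 (quantile normalization). All 10 genes passed the filter at the 25th percentile and 7 passed that at the 75th percentile. Precision is limited by the number of arrays.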
